A study of Saccharomyces cerevisiae with 6 samples.

Results

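FLO8, STE11, PCA1, AVO1, and SPB4 are 5 protein-coding genes of Saccharomyces cerevisiae known for transcription that starts inside the gene when the Set2 or Rpd3S pathway is lost. They were taken by gene name and systematic name from a table of 18646 transcriptional units, of which 6692 were protein coding. All 5 genes had a unit, and 4 had reads and were among the 5317 units tested. RNA-seq compared 3 Δset2 samples with 3 wild-type (WT) samples. Both groups were strain W303 and were grown in rich medium with glucose and adenine (YPDA) to an optical density of 0.6. The Δset2 samples lacked SET2 throughout growth; their label gives a replacement of SET2 with a HIS3 marker, whereas the study's strain description gives a KanMX marker. Each sample was RNA from a separate colony, and no rescued strain or catalytic mutant was analysed here.

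Set2 travels with elongating RNA polymerase II and methylates histone H3 on lysine 36. The Eaf3 and Rco1 subunits of the Rpd3S deacetylase bind nucleosomes carrying this mark, and Rpd3S then removes acetyl groups behind the polymerase. Without Set2 or Rpd3S, acetylated chromatin in gene bodies can expose promoter-like sequences, and short transcripts start there, usually toward the 3′ end. FLO8 and STE11 are the genes most often used to read out this cryptic initiation.

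The measurements here were reads per unit, counted without strand. A full-length mRNA, a short transcript from an internal promoter, and an antisense transcript all add to the same number, so the kind of transcript and the place where it started were not measured. In RNA from whole cultures, a change in every cell and a larger change in some of the cells cannot be told apart.

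Total counts were between 5135226 and 22536840 per sample. SET2 itself checked the labels: 20, 9, and 32 of its reads were found in Δset2, against 435, 298, and 459 in WT. Its log2 fold change was -4.27 with an SE of 0.19 (adjusted p = 1e-06, quasi-likelihood test of edgeR, adjusted by Benjamini-Hochberg over all tested units, as throughout). All 6 samples matched their labels by this gene. The strain background was not checked, because the counts carry no sequence.

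The coding sequences of the 5 genes were searched for TATAAA, the core of the promoter element bound by TATA-binding protein, because an internal promoter may hold one. The search covered both strands of RefSeq's R64 assembly, whose coordinates matched those of the table; S288C is the strain of that assembly, not W303. The windows with a sense-strand match past the middle of the coding sequence are printed from 5′ to 3′ on the coding strand, with the match in capitals and numbered from the A of the start codon.
FLO8 +1626: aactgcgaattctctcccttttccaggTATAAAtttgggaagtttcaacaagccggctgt
FLO8 +1845: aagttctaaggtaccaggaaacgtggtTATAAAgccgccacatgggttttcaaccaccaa
AVO1 +2062: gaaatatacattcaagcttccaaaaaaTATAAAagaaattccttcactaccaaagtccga
AVO1 +2607: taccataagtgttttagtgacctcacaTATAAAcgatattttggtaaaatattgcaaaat
AVO1 +3108: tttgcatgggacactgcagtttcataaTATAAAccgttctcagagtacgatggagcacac
AVO1 +3237: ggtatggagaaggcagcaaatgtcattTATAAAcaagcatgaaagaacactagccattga
SPB4 +1492: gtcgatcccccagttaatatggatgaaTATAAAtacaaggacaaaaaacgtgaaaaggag
The FLO8 windows lie on the minus strand at chrV:375957-376016 and chrV:375738-375797. The AVO1 windows lie on the plus strand at chrXV:183716-183775, chrXV:184261-184320, chrXV:184762-184821, and chrXV:184891-184950. The SPB4 window lies on the minus strand at chrVI:145411-145470.

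FLO8 had 4 sense matches in 2400 nt of coding sequence, of which 2 lay past the middle. Among the 400 coding sequences within 10% of its length, 44.2% had at least 1 match past the middle. All 4 sense matches in the 3531 nt of AVO1 lay past the middle, where 52.3% of 199 coding sequences of similar length had at least 1. AVO1 also had 1 antisense match, which overlapped the last sense match. SPB4 had 1 sense match in 1821 nt, past the middle, where 30.4% of 628 coding sequences of similar length had one. STE11 and PCA1 had 0 matches on either strand in 2154 and 3651 nt. Of 464 coding sequences within 10% of the length of STE11, 59.1% had a sense match and 39.9% had one past the middle. Of 167 within 10% of the length of PCA1, 76.0% had a sense match and 55.1% had one past the middle. These letters are common in yeast coding sequences and are given as a description, and no promoter was mapped with these data.

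**Figure D1:**
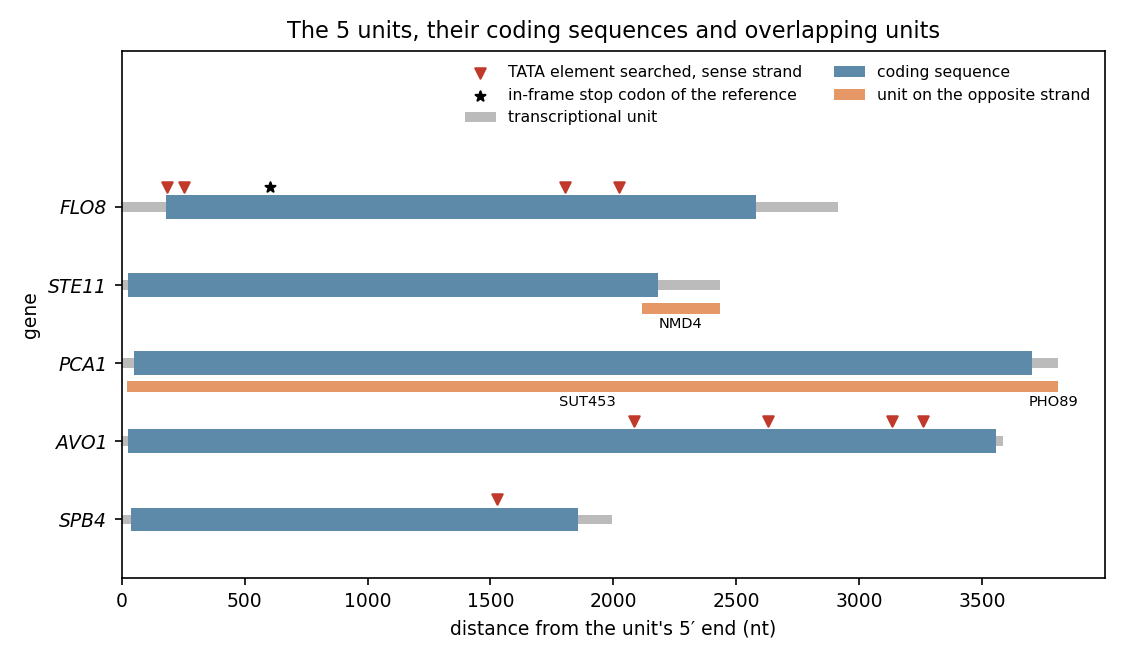
The 5 units drawn from their 5′ ends (distance in nt on the x axis), with the unit in gray, the coding sequence in blue, units on the opposite strand in orange, sense TATAAA matches as triangles, and the in-frame stop codon of the reference FLO8 as a star. PCA1 is covered by SUT453 and PHO89 along all but 20 nt, NMD4 covers the last 317 nt of STE11, and the other 3 units are free of overlap.

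Where a read lay decided whether it was counted, because a read that touched more than 1 unit was left out. FLO8 spans 2913 nt on the minus strand of chromosome V (374881 to 377793), AVO1 3585 nt on the plus strand of chromosome XV (181658 to 185242), and SPB4 1993 nt on the minus strand of chromosome VI (144978 to 146970). No other unit overlapped these 3 genes, so 76-nt reads could be counted along their whole length, at 2936, 3608, and 2016 start positions. STE11 spans 2433 nt on the plus strand of chromosome XII (849840 to 852272), and its last 317 nt are shared with NMD4, a gene of nonsense-mediated decay on the opposite strand. It had 2090 countable start positions, with 1228 in its 5′ part and 862 in its 3′ part on either side of the middle of the unit.

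PCA1 encodes a P-type ATPase that exports cadmium. Its unit spans 3809 nt on the plus strand of chromosome II (792798 to 796606). The noncoding unit SUT453 on the opposite strand (792818 to 796570) shares 3753 nt with it, and the phosphate transporter gene PHO89 (796570 to 798586) shares 37 nt. Only 20 nt of PCA1 belonged to it alone, and a 76-nt read had 0 positions that touched PCA1 and no other unit. PCA1 and SUT453 were listed at 0 reads in all 3 Δset2 samples and all 3 WT samples. These zeros follow from the counting and give no level of PCA1 in either group. In all, 791 protein-coding units (11.8%) had no countable position.

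FLO8 encodes a transcription factor needed for flocculation, invasive growth, and filamentous growth. It had 283, 167, and 784 reads in Δset2, against 170, 109, and 192 reads in WT. As normalized CPM (read counts scaled to a common library size), these were 29.2, 33.3, and 34.3 in Δset2, against 14.5, 10.7, and 12.6 in WT. The lowest Δset2 sample was above the highest WT sample by more than the range within either group. The means were 32.3 ± 2.70 CPM in Δset2 and 12.6 ± 1.90 CPM in WT (SD, n = 3 each). FLO8 was 2.55-fold higher in Δset2 (95% interval 2.08 to 3.13), with a log2 fold change of 1.35 and an SE of 0.13 (adjusted p = 0.00046). This was the largest rise among the 4 measured genes and ranked 24 among the log2 fold changes of all 5317 tested units. Under 14 alternative analyses, including each sample left out in turn, the log2 fold change stayed between 1.25 and 1.45 and the adjusted p was at most 0.011.

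RefSeq annotates FLO8 of the reference strain as a pseudogene, because a stop codon interrupts it at codon 142. The codon is shown in capitals on the coding strand at chrV:377159-377221, since it sets how the gene should be read in a laboratory strain.
FLO8 codon 142: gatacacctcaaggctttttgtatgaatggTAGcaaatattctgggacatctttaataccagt
RNA from this locus is therefore not a measure of active Flo8 protein, and the allele carried by these W303 samples was not read from the counts.

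STE11 encodes the kinase shared by the pheromone, filamentous growth, and high-osmolarity pathways. It had 293, 149, and 733 reads in Δset2, against 258, 220, and 302 reads in WT. The normalized values were 30.2, 29.7, and 32.1 CPM in Δset2, against 22.0, 21.6, and 19.9 CPM in WT. Each group was tight, and the groups did not overlap. The means were 30.7 ± 1.25 CPM in Δset2 and 21.2 ± 1.15 CPM in WT (SD, n = 3 each). STE11 was 1.46-fold higher in Δset2 (95% interval 1.25 to 1.70), with a log2 fold change of 0.54 and an SE of 0.10 (adjusted p = 0.014). It passed the test and stayed under the study's added threshold of a 1.5-fold change. The adjusted p was above 0.05 when Δset2 sample 1 (0.058), Δset2 sample 3 (0.10), or WT sample 3 (0.085) was left out, while the log2 fold change stayed between 0.49 and 0.57. The 317 nt at the 3′ end shared with NMD4 gave no reads to either gene, while 862 countable positions remained in the 3′ part.

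AVO1 encodes a subunit of TORC2, the TOR kinase complex that controls the plasma membrane and the actin cytoskeleton. It had 318, 130, and 768 reads in Δset2, against 323, 236, and 324 reads in WT. The normalized values were 32.8, 25.9, and 33.6 CPM in Δset2, against 27.6, 23.2, and 21.3 CPM in WT. Δset2 samples 1 and 3 were above every WT sample, and Δset2 sample 2 was below WT sample 1. The means were 30.8 ± 4.23 CPM in Δset2 and 24.0 ± 3.21 CPM in WT (SD, n = 3 each). The log2 fold change was 0.38 with an SE of 0.14, or 1.30-fold with a 95% interval of 1.05 to 1.60. AVO1 did not pass the test (adjusted p = 0.13, unadjusted p = 0.019). The adjusted p was between 0.073 and 0.39 over the alternatives.

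SPB4 encodes a DEAD-box RNA helicase of large ribosomal subunit assembly. It had 502, 266, and 1271 reads in Δset2, against 721, 603, and 815 reads in WT, the most reads of the 5 genes in every sample. The normalized values were 51.8, 53.0, and 55.6 CPM in Δset2, against 61.6, 59.3, and 53.6 CPM in WT. The groups overlapped, with Δset2 sample 3 above WT sample 3. The means were 53.5 ± 1.95 CPM in Δset2 and 58.1 ± 4.08 CPM in WT (SD, n = 3 each). The log2 fold change was -0.12 with an SE of 0.10 (adjusted p = 0.50). The 95% interval of the fold change ran from 0.794 to 1.07, so a rise of the size measured for FLO8 or STE11 lay outside it.

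**Figure D2:**
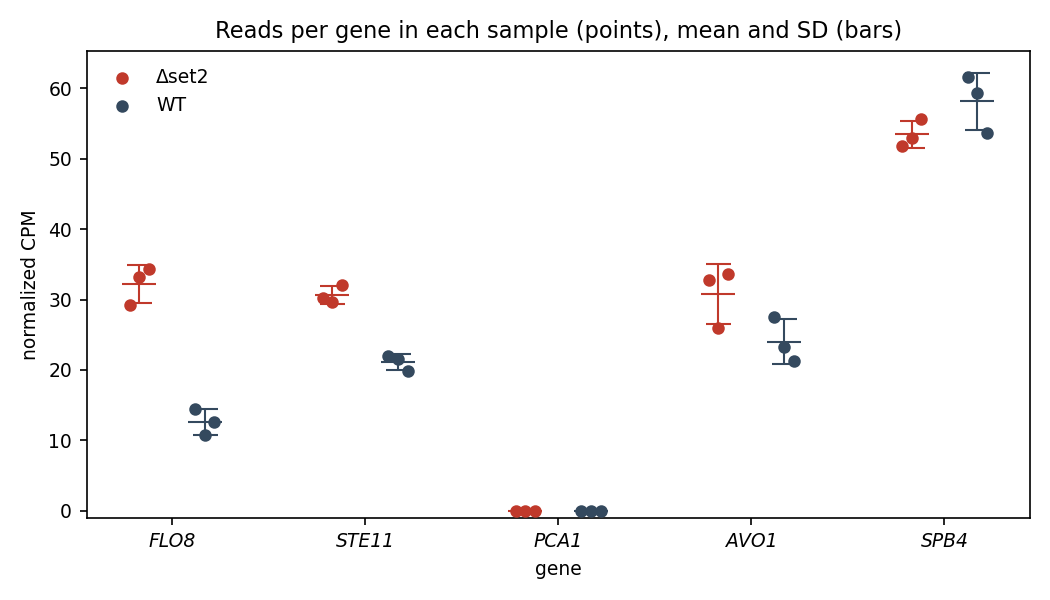
Normalized CPM of each gene (y axis) in the 3 Δset2 samples (red, left of each pair) and the 3 WT samples (dark blue), with bars for the mean and SD. The groups are apart for FLO8 and STE11 and overlap for AVO1 and SPB4, and PCA1 is at 0 because no read could be counted for it.

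Among the 4 measured genes, 2 were higher in Δset2 at an adjusted p under 0.05 (FLO8 and STE11), against 4.48% of all tested units, and 0 were lower, against 1.77%. With a fold change above 1.5 added, 1 gene was higher (FLO8), against 2.84% of tested units, and 0 were lower, against 0.733%. All 3 Δset2 samples were above all 3 WT samples for the same 2 genes, FLO8 and STE11, whereas this held for 14.1% of tested units. The median log2 fold change was 0.46 over the 4 genes and 0.00 over all tested units. The genes were chosen with earlier results of these data known, so these counts are a description. A count of 1 or 2 among 4 genes is too small to say that they differ from all tested units. With 3 samples a group, an exact permutation test on a single gene cannot give a two-sided p below 0.1, so the model fitted over all units carries these calls.

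Levels between genes were compared as CPM per kilobase of countable positions. In Δset2 the order was SPB4 at 26.5 ± 0.967, STE11 at 14.7 ± 0.597, FLO8 at 11.0 ± 0.919, and AVO1 at 8.53 ± 1.17. In WT the order was SPB4 at 28.8 ± 2.03, STE11 at 10.1 ± 0.549, AVO1 at 6.66 ± 0.890, and FLO8 at 4.30 ± 0.647 (SD, n = 3 each). FLO8 and AVO1 thus stood in opposite order in the groups: the lowest FLO8 value in Δset2 (9.95) was above the highest AVO1 value (9.31), and the highest FLO8 value in WT (4.94) was below the lowest AVO1 value (5.91). No neighbours in either order overlapped between samples. FLO8 and AVO1 were low-abundance long genes. Their mean levels over all samples ranked at percentiles 12.8 and 12.6 of tested protein-coding units, and their lengths at percentiles 86.5 and 93.1. STE11 was at percentile 26.1 by level and 78.4 by length, and SPB4 at percentiles 55.1 and 67.6.

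The nearest tested unit on each side of each gene was set beside it. How far a change extended along the chromosome was not measured. KAP123, an importin gene upstream of FLO8, had a log2 fold change of -0.08 (adjusted p = 0.71), and GLE2, a nuclear pore gene downstream, one of -0.16 (adjusted p = 0.46). The rise at FLO8 thus stood between neighbours that did not pass the test. DCR2, upstream of STE11, had a log2 fold change of -0.38 with an SE of 0.10 (adjusted p = 0.061), and its 3 Δset2 samples were all below its 3 WT samples. The share of all tested units separated downward in this way was not counted. NMD4, on the other side of STE11, had a log2 fold change of 0.00 with an interval of -0.36 to 0.35 (adjusted p = 0.99). AVO1 lay between REX4, with a log2 fold change of -0.29 (adjusted p = 0.38), and ATP19, with -0.30 (adjusted p = 0.25). SPB4 lay between DEG1, with a log2 fold change of 0.10 (adjusted p = 0.70), and MSH4, a meiotic gene 7820 nt away with 3 to 38 reads a sample, with -0.13 (adjusted p = 0.88). PHO89, which overlaps PCA1, had a log2 fold change of 0.23 (adjusted p = 0.46), and VBA2, 4136 nt to its other side, had -0.08 (adjusted p = 0.72). None of these 10 neighbours passed the test.

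**Figure D3:**
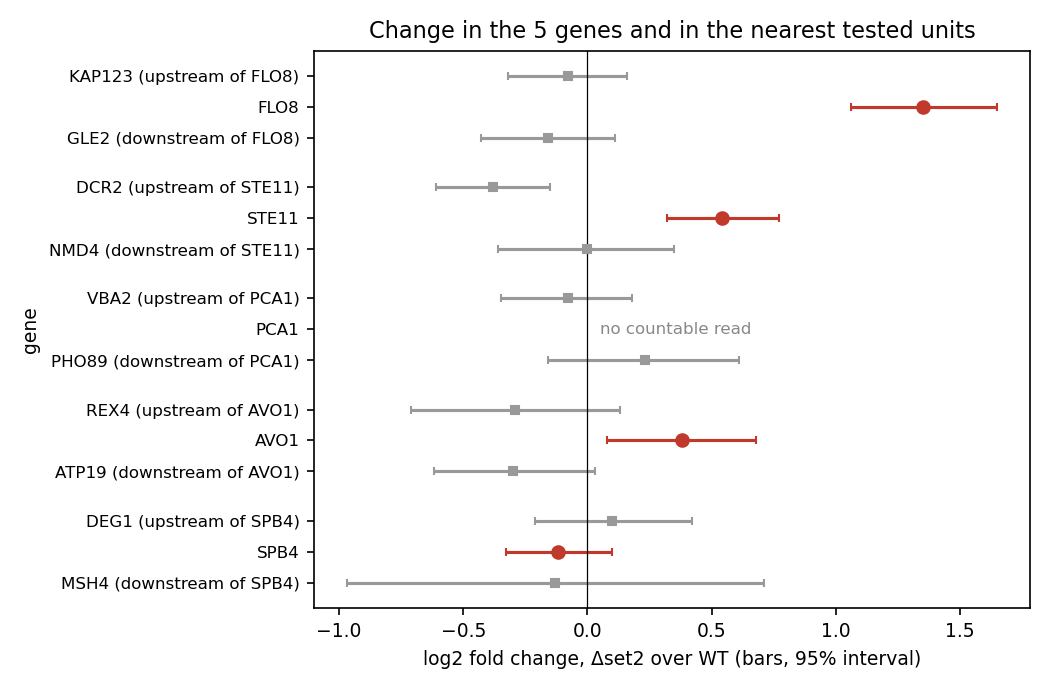
Log2 fold change of Δset2 over WT (x axis) with 95% intervals for each of the 5 genes (red circles) and the nearest tested unit on either side (gray squares). The intervals are not adjusted for the number of units tested. Those of FLO8, STE11, and AVO1 lie above 0 and that of DCR2 lies below 0, but AVO1 and DCR2 did not pass the test. The interval of FLO8 is apart from those of both its neighbours, that of STE11 narrowly overlaps that of NMD4, and PCA1 has no value.

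The genes around the 5 were taken as lists of known pathway members, chosen with earlier results of these data known. Counts of calls in these lists are therefore a description. Where 0, 1, or 2 genes of a list were called, the count is too small to say whether the list differs from all tested units. The partners of Set2 itself came first. Of the 5 listed genes of H3K36 methylation and Rpd3S other than SET2, 0 were called. Over all tested units, 4.48% were called higher and 1.77% lower. The log2 fold changes of the 5 genes were between -0.02 and 0.19. Among 14 histone chaperones and remodellers of transcribed chromatin, 1 rose (against 4.48% of all tested units) and 0 fell, with a median log2 fold change of -0.06. The gene that rose was HPC2, a subunit of the HIR histone chaperone. HPC2 had 16.7, 17.1, and 17.7 CPM in Δset2, against 9.05, 8.75, and 10.3 CPM in WT, with a log2 fold change of 0.87 and an SE of 0.12 (adjusted p = 0.0033).

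The list around FLO8 held 12 regulators and adhesion genes, of which 11 were tested. Besides FLO8, 3 of the other 10 rose, against 4.48% of all tested units, and 0 fell, against 1.77%, with a median log2 fold change of 0.47. All 3 encode cell wall flocculins, and none of the tested regulators besides FLO8 passed the test. FLO5 had 33.9, 30.3, and 31.9 CPM in Δset2, against 12.7, 16.6, and 15.6 CPM in WT (log2 fold change 1.10, SE 0.12, adjusted p = 0.00084). FLO10 had 30.7, 25.7, and 29.2 CPM in Δset2, against 13.3, 18.6, and 14.1 CPM in WT (log2 fold change 0.91, SE 0.14, adjusted p = 0.0052). The groups of both genes were well apart. FLO1 was much lower, with 31, 16, and 48 reads in Δset2, against 10, 8, and 12 reads in WT (log2 fold change 1.70, SE 0.30, adjusted p = 0.011). The FLO1 call was lost without Δset2 sample 1 (adjusted p = 0.061) or WT sample 3 (0.075), and the FLO10 call without Δset2 sample 3 (0.051). FLO1, FLO5, FLO9, and FLO10 are similar in sequence and only uniquely mapped reads were kept, so the split of reads among them is uncertain. FLO9 had at most 2 reads in a sample and was not tested. FLO11, the main adhesin of invasive growth and a well-known target of Flo8, had 39, 15, and 45 reads in Δset2, against 24, 24, and 25 reads in WT. Its log2 fold change was 0.50 with an SE of 0.31 (adjusted p = 0.37), so its direction was not resolved at this depth. MSS11, which acts with FLO8, had a log2 fold change of -0.03 (adjusted p = 0.92). SFL1, a repressor of flocculation genes, had one of 0.68 with an SE of 0.21 (adjusted p = 0.084).

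Of the other 17 genes in the kinase cascades that use STE11, 1 rose (against 4.48% of all tested units) and 0 fell, with a median log2 fold change of 0.01. The gene that rose was SSK22, a kinase of the high-osmolarity pathway at the same tier as STE11. SSK22 had 20.8, 19.5, and 21.0 CPM in Δset2, against 15.1, 15.7, and 13.6 CPM in WT (log2 fold change 0.48, SE 0.11, adjusted p = 0.035). The call on SSK22 was lost with DESeq2 (adjusted p = 0.060) and when any of 4 samples was left out: Δset2 sample 1 (adjusted p = 0.13), Δset2 sample 3 (0.16), WT sample 1 (0.11), or WT sample 3 (0.15).

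Of the 10 genes of TORC2 and its targets other than AVO1, 1 rose (against 4.48% of all tested units) and 0 fell, with a median of 0.13. BIT2, a minor TORC2 subunit, had 54, 32, and 116 reads in Δset2, against 33, 24, and 53 reads in WT (log2 fold change 0.91, SE 0.20, adjusted p = 0.031). Leaving out any sample but WT sample 2 ended the call on BIT2 (adjusted p between 0.058 and 0.11). Of the 9 RNA helicases of 60S subunit assembly other than SPB4, 0 rose and 1 fell (against 1.77% of all tested units), with a median of -0.32. The helicase that fell, MAK5, had 108, 112, and 114 CPM in Δset2, against 158, 142, and 137 CPM in WT (log2 fold change -0.39, SE 0.09, adjusted p = 0.040). Leaving out any sample but WT sample 2 ended the call on MAK5 as well (adjusted p between 0.068 and 0.16).

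Of the 15 P-type ATPases other than PCA1, 14 were tested, 2 rose (against 4.48% of all tested units), and 0 fell, with a median of 0.07. CCC2, the copper transporter of the secretory pathway, had 54.5, 59.0, and 60.1 CPM in Δset2, against 44.1, 37.0, and 40.6 CPM in WT (log2 fold change 0.51, SE 0.10, adjusted p = 0.021). PMA2, the minor plasma membrane proton pump, had 24.7, 21.9, and 19.6 CPM in Δset2, against 12.4, 14.2, and 9.67 CPM in WT (log2 fold change 0.87, SE 0.16, adjusted p = 0.012). Both sets of samples were apart. PMA2 resembles the far more abundant PMA1, so its reads are uncertain. The CCC2 call was lost without Δset2 sample 1 (0.053), Δset2 sample 3 (0.12), or WT sample 3 (0.10), and the PMA2 call without Δset2 sample 1 (0.070) or WT sample 3 (0.060).

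**Figure D4:**
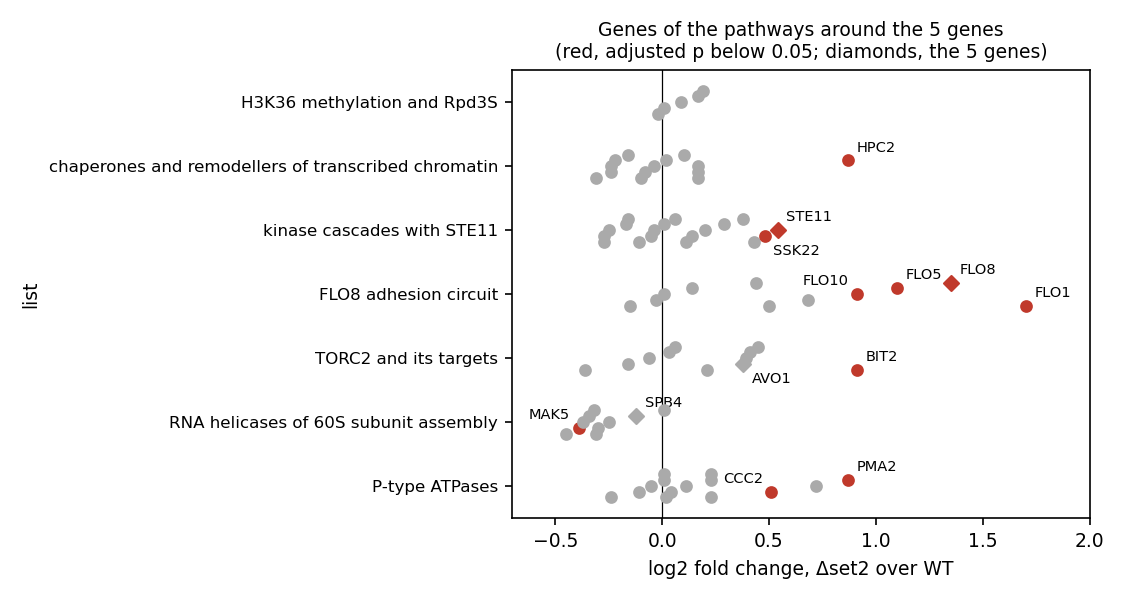
Log2 fold change of Δset2 over WT (x axis) for each tested gene of the 7 lists (rows), with the genes that passed an adjusted p of 0.05 in red, the others in gray, and FLO8, STE11, AVO1, and SPB4 as diamonds; SET2, at -4.27, and untested genes are left out. The FLO8 list holds 4 red points to the right of 0, the RNA helicase list lies mostly left of 0 with MAK5 in red, and the red points of the other lists (HPC2, STE11, SSK22, BIT2, CCC2, and PMA2) lie to the right of 0.

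The tested protein-coding units whose values over the 6 samples were most like each gene were found by Pearson correlation of log2 CPM, as a description over libraries that share the same group difference. For FLO8 these were ARN1, a siderophore transporter gene (r = 0.995), and CCH1, a calcium channel gene (r = 0.994). ARN1 had 251, 260, and 282 CPM in Δset2, against 124, 107, and 120 CPM in WT, and CCH1 had 204, 209, and 208 CPM in Δset2, against 105, 87.0, and 103 CPM in WT. For STE11 they were 2 more siderophore transporter genes, ENB1 (r = 0.994) and ARN2 (r = 0.992). ENB1 had 368, 357, and 365 CPM in Δset2, against 247, 240, and 218 CPM in WT. AVO1 was most like YMR1 (r = 0.993) and ESC8 (r = 0.975), and SPB4 most like CBP2 (r = 0.992) and YAP7 (r = 0.989). The log2 fold changes of these last 4 genes, between -0.32 and 0.35, did not pass the test.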

How the data were processed

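Total RNA depleted of rRNA (200 ng) from 3 Δset2 and 3 WT colonies was sequenced in a single pool (single-end, 76 nt). The authors mapped reads to sacCer3 with TopHat2 2.1.0 (at most 2 mismatches), kept uniquely mapped reads with a mapping quality of at least 20, and deposited counts per transcriptional unit, made with summarizeOverlaps without strand; reads touching more than 1 unit were left out. The authors also deposited FPKM values, a mean normalized count (a signal pooled over all samples), and the log2 fold changes, Wald scores, and p-values of their own DESeq2 comparison; none of these was used here.

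In R 4.3.3, the quasi-likelihood test of edgeR 4.0.16 (with limma 3.58.1) was run on the counts after TMM normalization and filterByExpr, without a replicate block, with Benjamini-Hochberg adjustment over 5317 units; each SE was taken from the ratio of the log2 fold change to the root of its F statistic. DESeq2 1.42.0, other scalings and filters, a replicate block, and leaving out each sample were alternatives. The fit was tested on simulated data. Countable positions, levels, motif counts, and figures were made with Python 3.11.15, numpy 2.4.6, pandas 2.3.3, and matplotlib 3.10.9; correlations used log2 of normalized CPM plus 0.5. Adapter trimming can shorten reads, so positions hold for full-length reads. In all, 5986 of 5988 coding units with a RefSeq R64 coding sequence contained it.

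The members and the 7 gene lists were chosen with earlier results of these data known. Genes named were the 5 members, SET2, overlapping units, the nearest tested unit on each side, list genes past the test, and the 2 units most like each member; FLO9, FLO11, MSS11, and SFL1 were named after their values were seen.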

Additional observations from a re-analysis of the deposited data

How the results depend on the processing

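FLO8, AVO1, and SPB4 kept their directions and their side of the threshold under all 14 alternatives, and the fall of SET2 (-4.43 to -4.03) under the 13 in which it was tested. STE11 kept its direction under all 14 and its call under 10. With each sample left out in turn, its log2 fold change was 0.49 to 0.57. The number of all units called with a fold change above 1.5 was 190 with all samples. It was 373 without WT sample 2 and 219 without Δset2 sample 2. It was 99 without Δset2 sample 1, 80 without Δset2 sample 3, 121 without WT sample 1, and 90 without WT sample 3. Calls lost without 1 of these last samples thus came with fewer calls over all units. With a replicate block the STE11 log2 fold change was 0.54 (adjusted p = 0.11), and 75 units were called; FLO8 kept its call, and AVO1 and SPB4 did not pass the test with or without the block. The block was not used further, since same-numbered samples did not deviate together (correlations of -0.339, -0.382, and -0.135) and 0 of 6 samples were closest to their own number. The block also ended the calls on SSK22 (adjusted p = 0.17), FLO1 (0.050), BIT2 (0.14), MAK5 (0.17), and CCC2 (0.12). DCR2 gained a call without WT sample 2 (0.027). Among neighbours that did not pass the test, VBA2 changed sign without WT sample 2 (0.03; range with 1 sample left out, -0.16 to 0.03), and MSH4 without Δset2 sample 2 (0.02) or WT sample 3 (0.17; range -0.69 to 0.17). With at least 10 reads required in every sample, SET2, FLO1, and MSH4 were not tested. The causes were not tested. FLO1, FLO11, and MSH4 had under 50 reads in every sample, and FLO9 at most 2.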

Other observations

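Ratios of reads within a sample do not depend on how libraries are scaled; the pairs were chosen after the values were seen and are given as a description. FLO8 had 0.791, 0.811, and 0.761 reads per read of its downstream neighbour GLE2 in the 3 Δset2 samples, against 0.310, 0.267, and 0.249 in the 3 WT samples. STE11 had 1.29, 1.16, and 1.32 reads per read of DCR2 in Δset2, against 0.715, 0.721, and 0.576 in WT, where DCR2 itself was lower in all 3 Δset2 samples than in all 3 WT samples. Against its other neighbour, NMD4, STE11 had 1.93, 1.27, and 2.02 in Δset2, against 1.37, 1.2, and 1.03 in WT, which overlapped. AVO1 had 2.39, 2.71, and 2.45 reads per read of ATP19 in Δset2, against 1.73, 1.56, and 1.34 in WT, and these groups were apart. The AVO1 levels overlapped, while ATP19 itself was lower in all 3 Δset2 samples than in all 3 WT samples. For DCR2 and ATP19 alike, the share of all tested units separated downward was not counted. How often ratios between neighbouring units separate the groups was not counted over all tested units either. Against its other neighbour, REX4, AVO1 had 4.36, 2.28, and 3.73 in Δset2, against 2.02, 2.51, and 2.04 in WT, which overlapped. SPB4 had 2.50, 1.96, and 2.1 reads per read of DEG1 in Δset2, against 2.58, 3.03, and 2.12 in WT, which also overlapped.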
